A study of Rattus norvegicus with 123 samples.

Results

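The livers of male Han Wistar rats given phenobarbital at 80 mg/kg daily by gavage for 90 d were compared with those of rats given the vehicle, carboxymethylcellulose, over the same time. It is the longest exposure in a series of 123 arrays on 8 compounds, in which all other groups were dosed for 14 or 28 d. The arrays were chosen by group name and by the submitters' quality mark: 3 of 5 phenobarbital arrays (replicates 2, 4 and 5) and 4 of 5 control arrays (replicates 1 to 4) were marked as good, 7 of the 112 such arrays in the series. The same dose and vehicle were given for 14 d (3 of 5 phenobarbital arrays marked as good, against 5 of 6 control arrays, 1 of them a technical repeat that was not marked as good) and for 28 d (5 phenobarbital and 5 control arrays, all marked as good). Animals were adults assigned to dose groups at random and were killed on the day after the last dose. The group names write the dose in ppm, and the labels write it in mg/kg.

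Phenobarbital is a barbiturate known to switch on the nuclear receptor CAR (constitutive androstane receptor) in hepatocytes. In rodent liver this is known to raise transcription of drug-metabolising enzymes, above all cytochrome P450 enzymes of the Cyp2b family, and of conjugating enzymes and transporters, together with liver growth. Long dosing is known to promote liver tumours in rodents without damage to DNA.

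RNA from pieces of frozen liver was measured on RaGene 2.0 ST arrays. The deposited values are log2 signals, so a difference of 1 is a 2-fold difference in signal. The table names its features by Ensembl transcript identifier, and none of the 22470 distinct features could be paired with a gene symbol. What follows therefore describes transcripts, and the labelled tissue was not checked against marker genes here. In pieces of whole liver, fewer cells of a type and less RNA per cell cannot be told apart. The median log2 value of the used arrays lay between 5.47 and 5.53 at 90 d. The median absolute difference between arrays over all transcripts was 0.162 to 0.194 among the phenobarbital arrays (3 pairs) and 0.163 to 0.192 among the control arrays (6 pairs). It was 0.186 to 0.216 between phenobarbital and control arrays (12 pairs), and 0.08 between an array and its technical repeat. The distance between the groups was thus little above the distance between arrays of a group.

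At 90 d phenobarbital changed 446 of the 22470 transcripts (1.98%) at a Benjamini-Hochberg adjusted p under 0.05 in limma, a linear model over all 29 groups of the series. It raised 306 (1.36%) and lowered 140 (0.623%). The changes were mostly small. The 306 raised transcripts had a median log2 change of 0.62, with an interquartile range of 0.45 to 1.004 and a range of 0.26 to 7.67. The 140 lowered transcripts had a median of -0.64, with an interquartile range of -0.998 to -0.47 and a range of -2.53 to -0.24. A change of 2-fold or more was measured for 78 of the raised and 35 of the lowered transcripts, and one of 4-fold or more for 17 and 8. Rises thus outnumbered falls, and the rises reached further, as the plot of all tested transcripts shows.

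**Figure D1:**
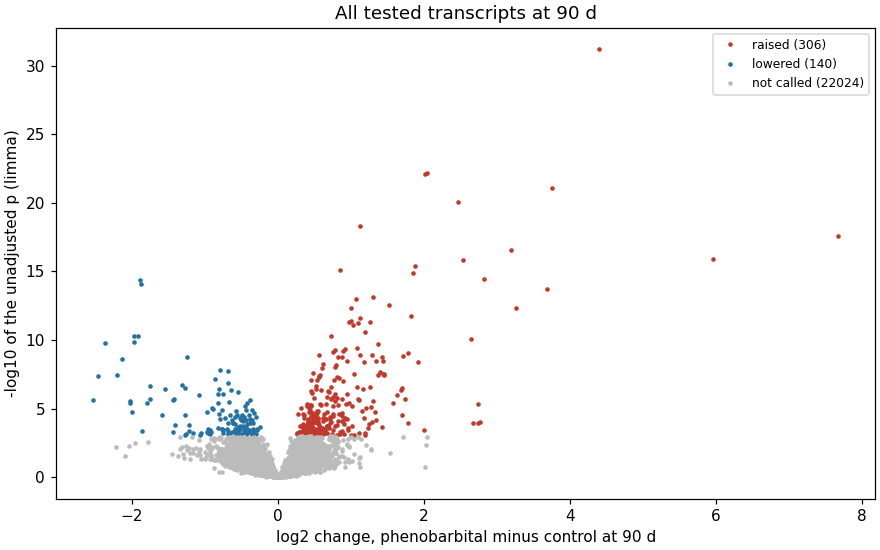
Log2 change at 90 d (phenobarbital minus control, horizontal axis) against -log10 of the unadjusted limma p (vertical axis) for all 22470 tested transcripts, with the 306 raised in red, the 140 lowered in blue and the rest in grey. The rises reach 7.67 log2 units and the falls -2.53.

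On the arrays themselves, 289 of the 306 raised transcripts (94.4%) had every phenobarbital value above every control value, against 6.8% of all transcripts. For 131 of the 140 lowered ones (93.6%) every phenobarbital value was below every control value, against 5.16% of all. The test that chose these transcripts used the same arrays, so these shares describe them and support nothing further. The raised and lowered transcripts were of above-average signal. Their median control level was 7.31 and 7.93, against 5.48 for all transcripts, and the share called was 0.356% among the 5618 dimmest transcripts and 4.66% among the 5618 brightest. Several transcripts of 1 gene can be counted more than once. Joining transcripts whose residuals correlated above 0.9 left 274 groups raised and 128 lowered, and the largest such group held 6 transcripts.

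The rise with the largest size was that of ENSRNOT00000044127. Its log2 value was 12.54, 12.85 and 12.65 on the 3 phenobarbital arrays, against 5.43, 5.44, 5.25 and 3.91 on the 4 control arrays. The groups lay about 7 log2 units apart without overlap, and the phenobarbital arrays differed from each other less than the controls did. The change was 7.67 (SE 0.69, limma adjusted p = 8.74e-15). At 14 d it had been 6.60, with an SE of 0.66, and at 28 d 6.25, with an SE of 0.57. The difference between the 90 d and the 28 d change was 1.42 (SE 0.90) and did not pass the test (limma adjusted p = 0.999).

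ENSRNOT00000028196 was the next largest rise, and its level with phenobarbital was among the higher ones on the arrays. Its log2 value was 13.41, 13.23 and 13.16 with phenobarbital, against 7.63, 7.97, 7.89 and 5.75 in controls. The change was 5.95 (SE 0.58, limma adjusted p = 2.84e-13), against 3.08 (SE 0.55) at 14 d and 4.10 (SE 0.48) at 28 d. Levels with phenobarbital were 12.98 to 13.09 at 14 d, 12.96 to 13.28 at 28 d and 13.16 to 13.41 at 90 d. The highest value of any transcript on a used 90 d array was 13.76 to 13.82, and whether signals near it are compressed was not tested. Control levels were 8.95 to 10.95 at 14 d, 7.50 to 9.87 at 28 d and 5.75 to 7.97 at 90 d. The controls at 90 d thus differed from those at 14 d by -2.66 log2 units (SE 0.51, limma adjusted p = 0.000421), while the phenobarbital arrays differed between these times by 0.22 (limma adjusted p = 0.933). The growth of the change from 14 to 90 d, 2.88 (SE 0.80), did not pass the test (limma adjusted p = 0.119).

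The third largest rise was 4.39 (SE 0.24, limma adjusted p = 1.39e-27). This transcript had log2 values of 9.71, 9.90 and 9.60 with phenobarbital, against 5.17, 5.66, 5.30 and 5.27 in controls. Its change was 3.82 at 14 d and 3.56 at 28 d, so that the 3 largest rises at 90 d were also large at the shorter times.

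The largest fall was that of ENSRNOT00000047615. Its log2 value was 4.24, 3.75 and 3.45 with phenobarbital, against 6.35, 6.32, 6.08 and 6.63 in controls. The groups did not overlap, and the change was -2.53 (SE 0.50, limma adjusted p = 0.000447). At 28 d the change was -1.55 (limma adjusted p = 0.0339), and at 14 d it was -1.29 (limma adjusted p = 0.189). It also fell with other compounds, of which the largest falls are given. The log2 change was -3.26 (SE 0.42, limma adjusted p = 3.55e-10) with Wy-14643 at 28 d. With methapyrilene at 100 mg/kg at 14 d it was -3.33 (SE 0.54, limma adjusted p = 1.41e-07). In the cyproterone acetate M group at 14 d it was -2.78 (SE 0.46, limma adjusted p = 5.24e-06). It was not called in the cyproterone acetate F group, with -0.12 at 14 d and 0.19 at 28 d. Nor was it called with pioglitazone (0.29 at 16 mg/kg and 0.01 at 63 mg/kg) or rosiglitazone (0.33).

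ENSRNOT00000068215 fell next most, and its control level moved with the time of dosing. Its log2 value was 4.72, 5.30 and 3.96 with phenobarbital, against 6.13, 7.71, 7.96 and 6.70 in controls, a change of -2.46 (SE 0.41, limma adjusted p = 1.33e-05). The change was -2.18 at 28 d (limma adjusted p = 4.37e-06) and -0.06 at 14 d (limma adjusted p = 0.970). Controls at 90 d were 3.52 log2 units above controls at 14 d (SE 0.36, limma adjusted p = 9.16e-12). Phenobarbital arrays at 90 d were 1.12 above those at 14 d, which did not pass the test (limma adjusted p = 0.20). The arrays not marked as good went against this separation: the phenobarbital ones had log2 values of 6.27 and 5.72, the first inside the used control range, and the control had 4.18, inside the used phenobarbital range. With all arrays in the fit the change was -1.34 (limma adjusted p = 0.0345). With only the groups at 90 d in the fit the limma adjusted p was 0.0623.

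**Figure D2:**
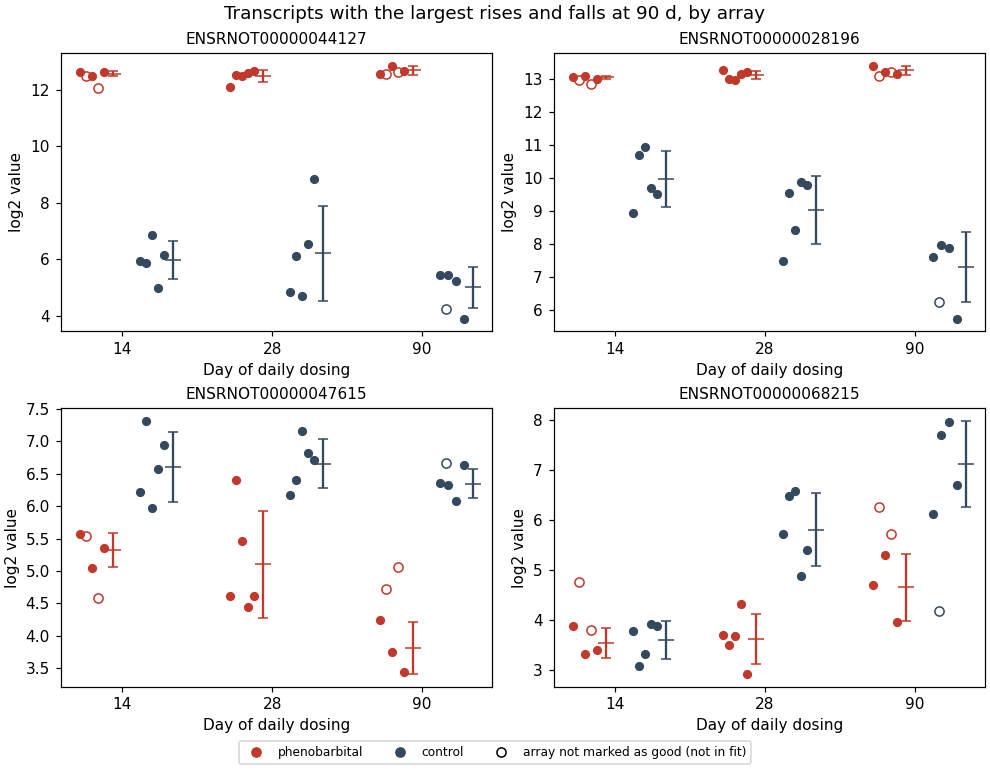
Log2 value (vertical axis) of the transcripts with the 2 largest rises (top) and the 2 largest falls (bottom) at 90 d, by day of dosing (horizontal axis), with phenobarbital in red left of control in dark grey. Points are arrays, bars are the mean ± SD of arrays marked as good, and open points are arrays not marked as good. ENSRNOT00000028196 stays near 13 with phenobarbital while its controls are lower at 90 d, and the controls of ENSRNOT00000068215 are 3.52 higher at 90 d than at 14 d.

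Of the 306 transcripts raised at 90 d, 130 were also raised at 28 d (42.5%) and 78 at 14 d (25.5%), against 0.952% and 0.672% of all transcripts. Those 130 were 60.7% of the 214 raised at 28 d, and the 78 were 51.7% of the 151 raised at 14 d. At all 3 times 70 were raised, 60 were raised at 28 d but not 14 d, 8 at 14 d but not 28 d, and 168 at neither. Among the 78 with a rise of 2-fold or more, 39 were raised at all 3 times and 24 at 90 d alone. None of the 306 was lowered at 28 d, and 1 was lowered at 14 d. That transcript, picked after its values were seen, had a log2 change of 0.41 at 90 d (limma adjusted p = 0.0434) and -0.46 at 14 d (limma adjusted p = 0.0169). The 90 d call was lost in 6 of the 7 fits that each left out 1 array.

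Of the 140 lowered transcripts, 24 were also lowered at 28 d (17.1%) and 10 at 14 d (7.14%), against 0.28% and 0.765% of all transcripts. They were 38.1% of the 63 lowered at 28 d and 5.81% of the 172 lowered at 14 d. Only 4 were lowered at all 3 times, and 110 were called at neither of the shorter times. Of the 35 with a fall of 2-fold or more, 2 were lowered at all 3 times and 21 at 90 d alone.

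A transcript called at 90 d alone was usually on the same side of 0 at the shorter times. The 167 raised at 90 d and called at neither 14 nor 28 d had a median log2 change of 0.16 at 14 d, 0.20 at 28 d and 0.53 at 90 d, and 126 and 153 of them were above 0 at 14 and 28 d. The 110 lowered ones had medians of -0.17, -0.23 and -0.58, and 89 and 96 of them were below 0 at 14 and 28 d. Over all transcripts the median change was close to 0 at each time. A list called at 1 time has its largest values there by choice, so the higher 90 d medians do not by themselves show growth with time. Across all 22470 transcripts the change at 90 d correlated with that at 28 d at r = 0.45 (rho = 0.29) and with that at 14 d at r = 0.30 (rho = 0.13). The 3 comparisons share no arrays, and neighbouring transcripts are not independent.

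**Figure D3:**
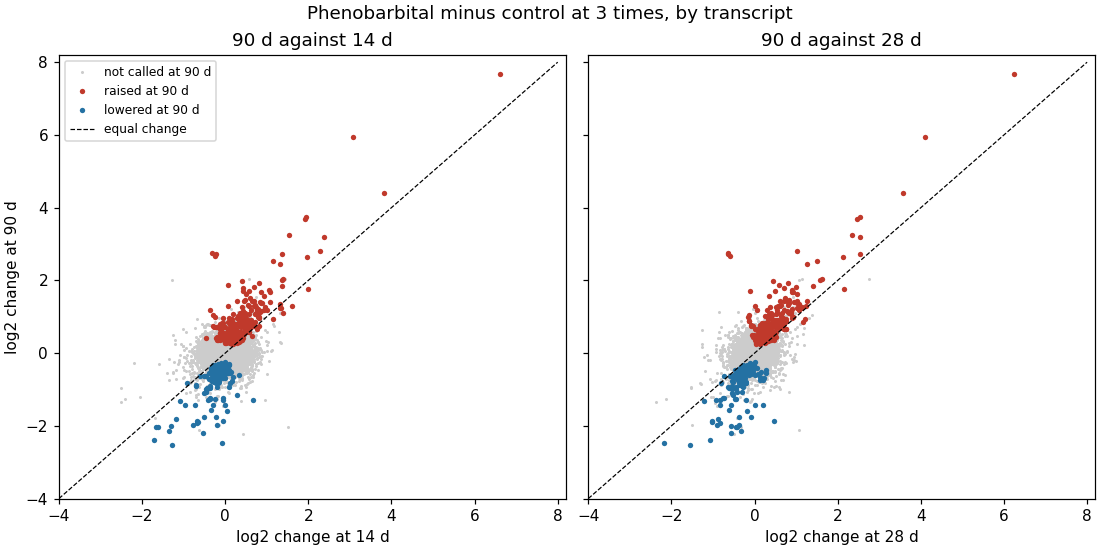
Log2 change at 90 d (vertical axis) against the change at 14 d (left) and 28 d (right) for all tested transcripts, with those raised at 90 d in red, those lowered in blue and the dashed line at equal change. The 3 largest rises lie above the line in both panels, and most of the lowered transcripts lie at small negative changes at 14 and 28 d.

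The differences between the times were tested directly. The phenobarbital change at 90 d differed from that at 28 d for 1 transcript (0.00445%). Before adjustment 1088 had a p under 0.05, and the 95% interval of a difference had a median half-width of 0.40. That interval is not adjusted for the number of transcripts tested, and a call at the adjusted threshold needed a difference well beyond it. The single call therefore does not show that the other changes were equal at the 2 times. The 1 transcript ranked 23 by rise and is given without an identifier. Its log2 value was 7.67, 8.19 and 7.79 with phenobarbital at 90 d, against 6.09, 5.86, 5.95 and 6.11 in controls. The change was 0.06 at 14 d, 0.59 at 28 d (limma adjusted p = 0.0313) and 1.88 at 90 d (limma adjusted p = 8.34e-13), and the 90 d change exceeded the 28 d one by 1.29 (SE 0.24, limma adjusted p = 0.0198). This difference was not called with all arrays in the fit, with only control set A, without control replicate 3, without phenobarbital replicate 4 or with phenobarbital replicate 3 added. Between 90 and 28 d the phenobarbital arrays differed by 0.98 (limma adjusted p = 0.00280) and the controls by -0.32 (limma adjusted p = 0.482). Whether these 2 shifts differ in size was not tested, and the transcript was picked by the difference between the times.

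Against 14 d, the change at 90 d differed for 23 transcripts (0.102%), 18 of them upward and 5 downward. Of these, 10 were called at 90 d and 13 at 14 d, 12 of the latter as lowered. The sign at 90 d was opposite to that at 14 d for 18, and for 21 the 28 d change lay between the other 2. The 23 were chosen by a large difference between 90 and 14 d, which favours both of these counts. They are thus a description and show no course over time. The 172 transcripts lowered at 14 d had a median log2 change of -0.49 at 14 d, -0.03 at 28 d and -0.04 at 90 d. This list was called at 14 d, so its values there are the largest by choice. The smaller later medians thus do not by themselves show a loss with time. For 12 of the 172 (6.98%) the 90 d change was called above the 14 d change by limma's test of the difference. Of all transcripts 0.0801% were called so. That test also uses the 14 d arrays that chose the list. At 28 d 12 of the 172 were lowered and 1 was raised, and at 90 d 10 were lowered and 1 was raised. The lowered shares, 6.98% at 28 d and 5.81% at 90 d, were above those of all transcripts, 0.28% and 0.623%, while most of the 172 were not called at the later times.

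The transcripts raised at 14 d give a view of 90 d that the 90 d arrays did not choose. Of 151, 74 were raised at 28 d and 78 at 90 d, against 0.952% and 1.36% of all transcripts. The median change was 0.57 at 14 d, 0.33 at 28 d and 0.40 at 90 d. The list was called at 14 d, so its 14 d median is high by choice. The change at 90 d minus that at 28 d was above 0 for 110 of the 151, with a median of 0.10, against 11350 of all 22470 transcripts and a median of 0.00. The 23 with a rise of 2-fold or more at 14 d had medians of 1.40 at 14 d, 1.499 at 28 d and 2.05 at 90 d, and 22 and 23 of them were raised at 28 and 90 d. For 21 of those 23 the 90 d change was the larger one, by a median of 0.51, and none of these differences passed the test. In the same 23, phenobarbital arrays at 90 d stood a median of 0.27 above those at 28 d, and control arrays a median of 0.22 below. By their medians both groups thus moved apart in these transcripts. The 151 and the 23 were all measured on the same arrays, and several transcripts can belong to 1 gene. They are not independent, so these counts are a description.

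Controls alone differed between the times. Between 90 and 28 d 79 transcripts were called (0.352%) and between 90 and 14 d 635 (2.83%), against 57 (0.254%) and 447 (1.99%) between the phenobarbital groups at the same times. The control comparisons rest on more arrays, so these counts do not show which group differed more. Age, days of dosing and anything else that differed between the time studies cannot be told apart here. Among the 306 transcripts raised at 90 d, controls at 90 d were called below controls at 14 d for 38 and above them for 1, against 1.69% and 1.13% of all transcripts. Among the 140 lowered, they were called above for 25 and below for 2. The 90 d controls were also used to choose these transcripts, so those counts are a description.

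Some transcripts called at 90 d alone differed between arrays more than the lists as a whole. Over the 306 raised transcripts the median SD was 0.13 among phenobarbital and 0.15 among control arrays. Over the 140 lowered ones it was 0.18 and 0.17. The 167 raised at 90 d alone had medians of 0.14 and 0.15, and the 110 lowered 0.17 and 0.16. The lists called at 90 d alone were thus about as variable as the whole lists. The largest rise called at 90 d alone, picked by size, had log2 values of 8.49, 9.68 and 9.22 with phenobarbital, against 6.07, 8.11, 5.21 and 6.07 in controls. Its change was 2.76 (SE 0.68, limma adjusted p = 0.00963), against -0.31 at 14 d and -0.65 at 28 d, neither of which passed the test. Controls were at 8.07 to 9.21 at 14 d and 7.18 to 8.92 at 28 d, so that the 90 d controls were low on 3 of 4 arrays. The phenobarbital arrays not marked as good had 9.67 and 7.43, and the control array not marked as good 7.88. Another 2 called transcripts had residuals that correlated with it above 0.9. The call was lost without control replicate 3, without phenobarbital replicate 4 and with only the groups at 90 d in the fit.

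The largest fall called at 90 d alone was uneven among phenobarbital arrays. Its log2 value was 10.76, 7.75 and 8.24 on the phenobarbital arrays, against 11.09, 11.01, 11.30 and 11.10 in controls, and 7.69 and 10.35 on the phenobarbital arrays not marked as good. Over these 5 phenobarbital arrays 3 were about 3 log2 units below the controls and 2 were under 1 unit below. The change was -2.21 (SE 0.37, limma adjusted p = 1.19e-05), against -0.53 at 14 d and -0.58 at 28 d, neither of which passed the test. Control levels lay between 10.89 and 11.42 at 14, 28 and 90 d. At 28 d 1 of the 5 phenobarbital arrays had 9.16 and the other 4 had 10.63 to 11.09. The SD with phenobarbital at 90 d was 1.61, against 0.12 in controls, and the model's pooled variance does not describe such a spread; the adjusted p was over the threshold with only the groups at 90 d in the fit.

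The 3 arrays at 90 d that were not marked as good took no part in choosing the transcripts. On each of phenobarbital replicates 1 and 3, 282 of the 306 raised transcripts (92.2%) were above all 4 used controls, against 22.2% and 29.6% of all transcripts on those arrays. The control array not marked as good had 78 of the 306 (25.5%) above the used controls, against 25.4% of all. Of the 140 lowered transcripts, 120 (85.7%) and 118 (84.3%) were below all 4 used controls on phenobarbital replicates 1 and 3, against 23.8% and 23.2% of all transcripts on those arrays. On the control array 64 (45.7%) were, against 20.1% of all, so that this control array, too, stood low for the lowered transcripts. Among only these 3 arrays, the mean of the phenobarbital pair minus the control was above 0 for 291 of the 306, with a median of 0.56, and below 0 for 123 of the 140, with a median of -0.38. Over all transcripts the median was -0.02. The raised transcripts were thus nearly as far up on the arrays left out as on those used, and the lowered ones less far down, by their medians. The used controls enter both the choice and the first of these counts.

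Within every array the middle of each list can be placed. Relative to the mean of the 4 used controls at 90 d, the median of the 306 raised transcripts was 0.57 to 0.67 on the used phenobarbital arrays at 90 d, and 0.56 and 0.59 on the 2 others. It was 0.39 to 0.44 on the used phenobarbital arrays at 14 d and 0.39 to 0.59 on those at 28 d. Controls were at 0.09 to 0.24 at 14 d, 0.04 to 0.16 at 28 d and -0.04 to 0.02 at 90 d. No array of any time had its phenobarbital median inside the range of the control medians. The used 90 d arrays chose these transcripts and the 4 controls set the zero line, so their separation at 90 d is by choice. The same choice can shift the 14 and 28 d arrays from 0. The 140 lowered transcripts had medians of -0.68 to -0.58 on the used phenobarbital arrays at 90 d, and -0.49 and -0.47 on the 2 others. Their medians were -0.48 to -0.29 on the used phenobarbital arrays at 14 d and -0.45 to -0.25 on those at 28 d. Controls were at -0.23 to -0.15 at 14 d and -0.14 to -0.01 at 28 d. At 90 d the used controls were at -0.03 to 0.07, and the control array not marked as good was at -0.17.

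**Figure D4:**
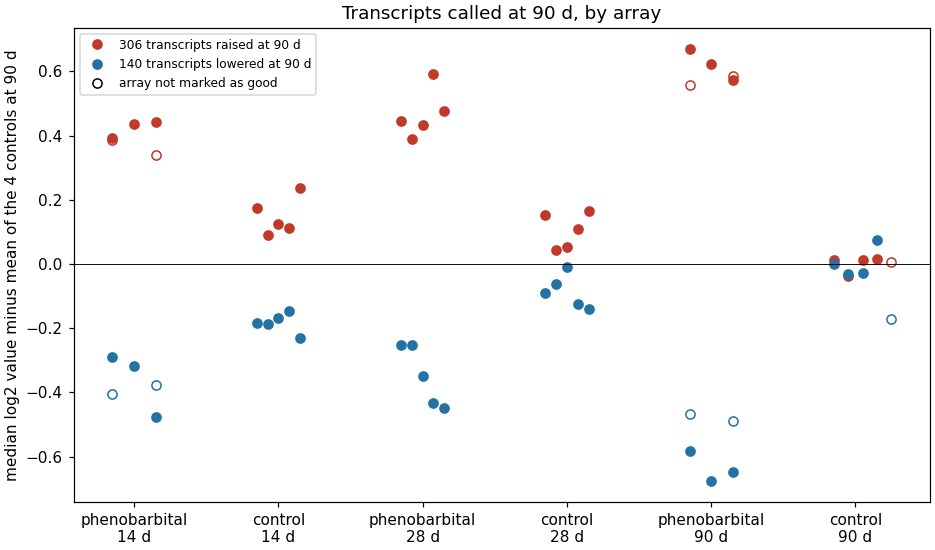
Median over the 306 transcripts raised at 90 d (red) and the 140 lowered (blue) of the log2 value minus the mean of the 4 used controls at 90 d (vertical axis), for each array by group and day (horizontal axis); open points are arrays not marked as good. Phenobarbital arrays at 90 d lie at 0.56 to 0.67 for the raised transcripts, and controls at 90 d lie near 0 because they set the zero line.

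The same transcripts were followed in the rest of the series, in which no comparison uses the 90 d arrays. Of the 306 raised transcripts, 176 were raised and 0 lowered by 1,4-dichlorobenzene at 600 mg/kg for 28 d, against 3.89% of all transcripts raised there. In the M group of cyproterone acetate, dosed with 100 mg/kg, 165 were raised and 3 lowered at 14 d and 166 and 4 at 28 d (5.22% and 6.16% of all raised). In the F group 149 were raised and 13 lowered at 14 d, and 158 and 19 at 28 d (7.53% and 8.91% of all raised, 6.21% and 6.24% of all lowered). The letters F and M are those of the group names, and the labels describe male animals throughout. With piperonyl butoxide at 600 mg/kg, 82 were raised at 14 d and 141 at 28 d, and none was lowered (1.23% and 4.93% of all raised). Methapyrilene at the lower dose, 30 mg/kg, gave 40 raised and 1 lowered at 14 d, and 62 and 15 at 28 d (2.31% and 5.37% of all raised, 1.07% and 4.06% of all lowered). For comparison, phenobarbital itself raised 130 of the 306 at 28 d and 78 at 14 d, from shorter lists over all transcripts.

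The lowered transcripts were also called in these comparisons. Of the 140, the M group of cyproterone acetate had 68 lowered and 1 raised at 14 d and 75 and 0 at 28 d (4.72% and 5.14% of all lowered). The F group had 35 lowered and 16 raised at 14 d, and 37 and 12 at 28 d. Of all transcripts, 6.21% and 6.24% were lowered there, and 7.53% and 8.91% were raised. Piperonyl butoxide lowered 29 at 14 d and 64 at 28 d (0.676% and 5.71%), 1,4-dichlorobenzene lowered 42 (2.07%), and the lower dose of methapyrilene lowered 29 at 14 d and 41 at 28 d (1.07% and 4.06%), with none of the 140 raised. The peroxisome proliferator Wy-14643 at 60 mg/kg, known to act through the receptor PPAR-alpha, moved the raised list both ways, with 125 raised and 52 lowered (11.9% of all transcripts raised there and 12.5% lowered). It lowered 70 of the 140 and raised 8. Methapyrilene at 100 mg/kg, which changed 48.1% of all transcripts, gave 160 raised and 69 lowered of the 306 (24.8% and 23.3% of all).

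The compounds used as non-carcinogens in the series changed few of the raised transcripts, and pioglitazone at the higher dose lowered part of the lowered ones. With rosiglitazone at 10 mg/kg none of the 306 was raised and 6 were lowered, where 0.2% of all were raised and 0.481% lowered. Pioglitazone raised 1 and lowered none at its dose of 16 mg/kg (0.0223% of all raised, 0.0267% lowered). At its dose of 63 mg/kg 8 were raised and 6 lowered (0.935% of all raised, 1.48% lowered). Of the 140 lowered, 16 (11.4%) were lowered by the higher pioglitazone dose, with 98 of the 140 below 0 and a median log2 change of -0.12. None was lowered by the lower dose, and 2 (1.43%) were lowered by rosiglitazone. Pioglitazone and rosiglitazone are known activators of PPAR-gamma. At the low dose pioglitazone changed 11 transcripts in all (0.049%), so few could be shared.

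**Figure D5:**
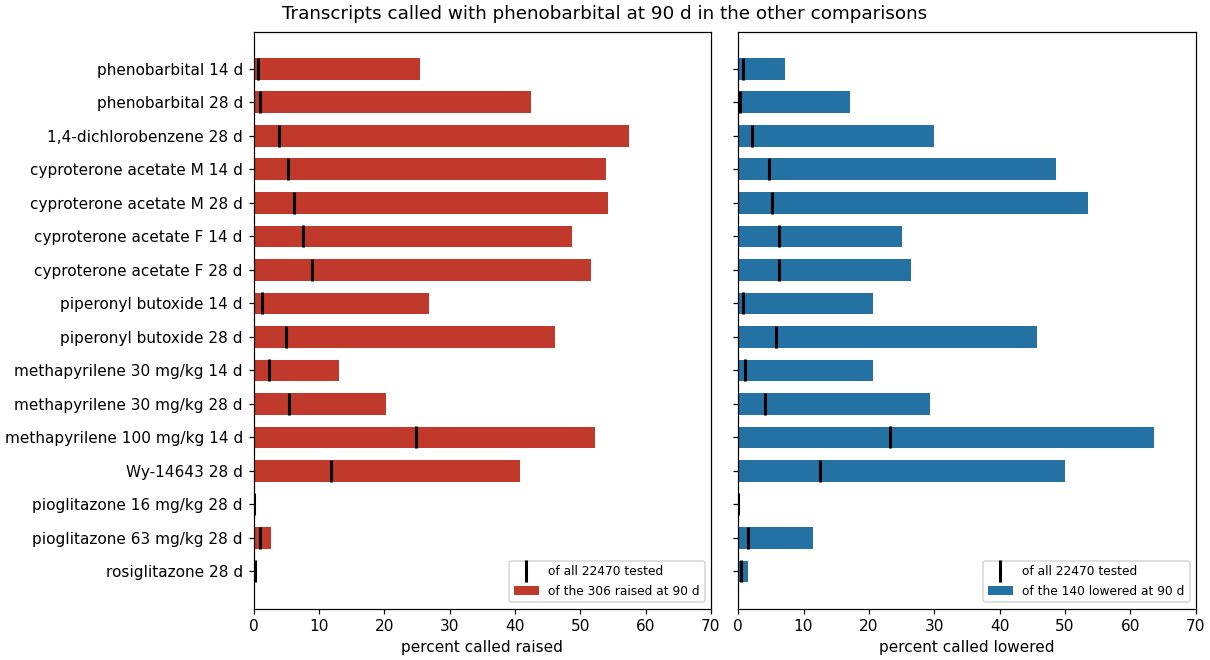
Percent of the 306 transcripts raised at 90 d that were also raised (left, red bars) and of the 140 lowered that were also lowered (right, blue bars) in each other comparison of the series (vertical axis), with black ticks at the percent of all 22470 transcripts called in that direction. The longest bar is that of 1,4-dichlorobenzene (176 of 306) on the left and that of methapyrilene at 100 mg/kg (89 of 140) on the right, and the bars are near 0 for rosiglitazone and low-dose pioglitazone.

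The transcripts called at 90 d but at neither 14 nor 28 d of phenobarbital were also found in these comparisons. Of the 167 raised, 1,4-dichlorobenzene raised 68 and lowered 0, the M group of cyproterone acetate at 28 d raised 72 and lowered 2, and piperonyl butoxide at 28 d raised 56 and lowered 0. Rosiglitazone raised 0 and lowered 3. Of the 110 lowered, these gave 27, 50 and 40 lowered, and rosiglitazone 1. The shares lie above the percentages of all transcripts given above for the first 3 comparisons, which used other animals and other controls. Transcripts of high signal were called more often at 90 d, and calls by signal level were not counted in the other comparisons. The lists were not matched on signal, so the part of signal level in these shares was not tested.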

How the data were processed

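Liver RNA was measured on RaGene 2.0 ST arrays. The deposited table holds log2 values for 23110 probe sets on 123 arrays, made by the authors with RMA and affy per the submitters' processing notes; versions, genome build and whether all arrays were normalized in 1 run are not given in the sources used here. Groups, doses and days came from the labels. Arrays not marked as good (11) and probe sets equal to an earlier one on every array (640) were left out. A model with 1 mean per group over 29 groups (83 residual and 4.23 prior degrees of freedom) was fitted with limma 3.58.1 in R 4.3.3, and calls were made at a Benjamini-Hochberg adjusted p under 0.05. On simulated data for 22470 transcripts, 48% of changes of 0.5 and 90% of changes of 1 (log2) were recovered in the 90 d comparison, with 10 false calls. The number of arrays limits the precision. The labels do not say that replicates are separate animals in every case. The p-values rest on the spread between arrays within groups, pooled over all 29 groups and not taken from the 90 d arrays alone. Identifiers were named for the 2 largest rises and falls whose groups do not overlap; the gene lists and markers drawn up for gene symbols were not used, since 0 identifiers matched the gene table. The arrays, lists and tests were chosen with earlier results of these data known. Replicate numbers are shared by 2 pairs of 90 d arrays (2 and 4). Alternatives were other sets of arrays, scalings, filters, variance models, a replicate block and leaving out each array.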

Additional observations from a re-analysis of the deposited data

Results flagged for a closer look

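On the 90 d control array of replicate 4, the transcripts with the 2 largest rises were both far below the other controls. ENSRNOT00000044127 was at 3.91, against 5.25 to 5.44 on the other 3, and ENSRNOT00000028196 was at 5.75, against 7.63 to 7.97. The transcript with the largest fall called at 90 d alone was at 9.16 on 1 phenobarbital array at 28 d, against 10.63 to 11.09 on the other 4. In all 36 groups of 9 transcripts were checked and 3 of the 36 stood out in this way, where chance gives about 1 in 20 of those checked. The 3 are thus no clear excess over chance, and 2 of them lie on the same array. The transcripts were also picked for their changes on these arrays.

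The phenobarbital change differed between 90 and 28 d for 1 transcript and between 90 and 14 d for 23, both by limma's test of the difference. The arrays at 90 d that were left out for their quality mark held the raised transcripts too: 282 of 306 were above all 4 used controls on phenobarbital replicate 1 and 282 on replicate 3.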

How the results depend on the processing

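The 446 calls at 90 d (306 raised, 140 lowered) moved with the arrays and groups in the fit. They became 896 (634, 262) with all arrays, 772 (515, 257) with array quality weights, 280 (203, 77) with the 6 groups of control set A alone and 151 (113, 38) with only the 2 groups at 90 d; of the 446, 403, 444, 252 and 137 remained in these fits. With phenobarbital replicate 3 added, an alternative chosen after seeing the data, they were 722 (485, 237). Without 1 array the count ran from 241 (without phenobarbital replicate 4) to 384, with 177 to 265 raised and 63 to 127 lowered, and 157 of the 446 (117 raised, 40 lowered) were called in all 7 such fits. The difference between 90 and 28 d, called for 1 transcript, was called for another 1 with all arrays, for 0 with the control set alone (999 at an unadjusted p under 0.05), 5 without the dimmest 40% of transcripts, 3 with weights, and 6 and 2 with phenobarbital replicates 1 and 3 added. Between 90 and 14 d the 23 became 418 with all arrays, 1 with the control set alone, 15 with quantile normalization, 43 without the dimmest, 104 with weights and 39 with phenobarbital replicate 3 added. The 79 transcripts that differed between controls at 90 and 28 d became 31 with the control set alone. Without 1 array these 3 counts ran from 0 to 8, 6 to 29 and 19 to 80. ENSRNOT00000068215 had an adjusted p of 0.0623 with only the 2 groups (its change there, -2.46, is the same by construction), and has no value without the dimmest transcripts. The causes were not tested. With the replicate block the counts were 391 (281, 110), 1, 21 and 84. Same-numbered deviations correlated at -0.05 and -0.04, and 2 shared numbers are too few to show whether the numbers pair the arrays.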
